A study of Mus musculus with 6 samples.

Results

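Jawbone periosteal cells grown as spheroids held 3.81-fold more Il6 mRNA, 5.55-fold more Il11 mRNA and 5.60-fold more Lif mRNA than the same kind of cells in monolayer, while mRNA of Il6st, the receptor subunit these cytokines share, was 21.6% lower. The genes described are 10 members of the interleukin-6 (IL-6) family: the cytokines Il6, Il11, Lif and Osm, the receptors Il6ra, Il11ra1, Lifr, Osmr and Il6st, and the feedback inhibitor Socs3. They were taken by gene symbol from the deposited tables. All 10 were found among 18002 listed genes, and 9 passed the filter on low counts, each with reads in every library of both formats; Osm did not pass.

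Bulk RNA came from primary cells of mouse jawbone, described in the study's design as derived from the periosteum, the membrane on the surface of bones. In 3 libraries the cells had been kept as spheroids, also labelled aggregates, and in 3 as a flat monolayer, for 48 h in both formats. The labels give no genotype, strain, age, sex, passage or added agent for either format, and do not say whether libraries came from separate cultures or animals, so the p-values reflect scatter among these 6 samples that may be only technical. Total counts ranged from 21701046 to 21889110 per library, and the median biological coefficient of variation was 3.09% per gene.

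Most cytokines of the IL-6 family signal through receptor complexes that hold the shared chain gp130, the product of Il6st. Some, such as interleukin-6 and interleukin-11, first bind a private receptor chain. Interleukin-6 and interleukin-11 use Il6ra and Il11ra1 with gp130 pairs, whereas leukaemia inhibitory factor pairs Lifr with gp130 and mouse oncostatin M mainly pairs Osmr with gp130. The paired chains activate JAK kinases and the transcription factor STAT3, and Socs3 is a STAT3 target whose protein binds gp130 and shuts the signal down. In bone, these cytokines act on osteoblasts, on osteocytes and, through RANKL made by stromal cells, on osteoclasts.

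The sequences before the start sites are shown for the 3 cytokine genes that rose and for Socs3, since these 4 genes were higher in spheroids and were the ones of the family in which a motif match was found. Each line gives the 250 bases before a start site of RefSeq GRCm38.p6, and capitals mark matches to a searched motif.
Il6, chr5:30012864-30013113, plus strand: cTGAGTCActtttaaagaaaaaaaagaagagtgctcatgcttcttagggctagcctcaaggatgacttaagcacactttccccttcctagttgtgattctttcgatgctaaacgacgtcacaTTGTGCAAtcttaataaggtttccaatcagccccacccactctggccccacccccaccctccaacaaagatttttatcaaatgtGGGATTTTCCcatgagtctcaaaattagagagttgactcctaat
Lif, chr11:4257318-4257567, plus strand: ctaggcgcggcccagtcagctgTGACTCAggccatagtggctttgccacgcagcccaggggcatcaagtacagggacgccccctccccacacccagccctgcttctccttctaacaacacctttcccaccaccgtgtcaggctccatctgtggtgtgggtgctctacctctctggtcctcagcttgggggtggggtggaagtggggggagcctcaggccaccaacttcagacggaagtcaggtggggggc
Il11, chr7:4778142-4778391, minus strand: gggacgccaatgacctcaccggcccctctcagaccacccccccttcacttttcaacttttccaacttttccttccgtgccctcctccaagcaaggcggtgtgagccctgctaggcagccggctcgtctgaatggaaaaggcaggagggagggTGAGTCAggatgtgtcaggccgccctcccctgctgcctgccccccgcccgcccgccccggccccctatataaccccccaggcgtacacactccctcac
Socs3, chr11:117969367-117969616, minus strand: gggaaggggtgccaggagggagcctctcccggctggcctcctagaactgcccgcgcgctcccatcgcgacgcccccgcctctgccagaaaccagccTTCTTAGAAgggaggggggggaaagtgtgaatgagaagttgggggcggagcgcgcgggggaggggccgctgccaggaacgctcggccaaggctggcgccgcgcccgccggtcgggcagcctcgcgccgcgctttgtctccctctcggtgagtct
The search read both strands for GGGNNTTTCC (NF-kB), TTCNNNGAA (STAT), TGANTCA (AP-1), TTGCNNAA (C/EBP) and, for the core promoter box, TATAAA, and no matches overlapped in these windows. Promoters were found for 9 members, with 12 start sites; Osm had no entry. An AP-1 match lay 249 to 243 bases before the start of Il6, 228 to 222 before that of Lif and 98 to 92 before a downstream start of Il11. The NF-kB match of Il6 lay 44 to 35 bases before its start and its C/EBP match 128 to 121 bases before it. Socs3 held a STAT match 154 to 146 bases before the start. The TATAAA letters were found in 0 of the 12 member promoters. That string misses related letters, such as the tatataa in the Il11 window, which were left in lower case. In all 32851 promoters of the table, the AP-1 letters were in 6.75%, the NF-kB letters in 1.41%, the STAT letters in 7.02%, the C/EBP letters in 9.56% and the TATA box letters in 12.4%. A match describes these letters only and is not evidence of binding.

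**Figure D1:**
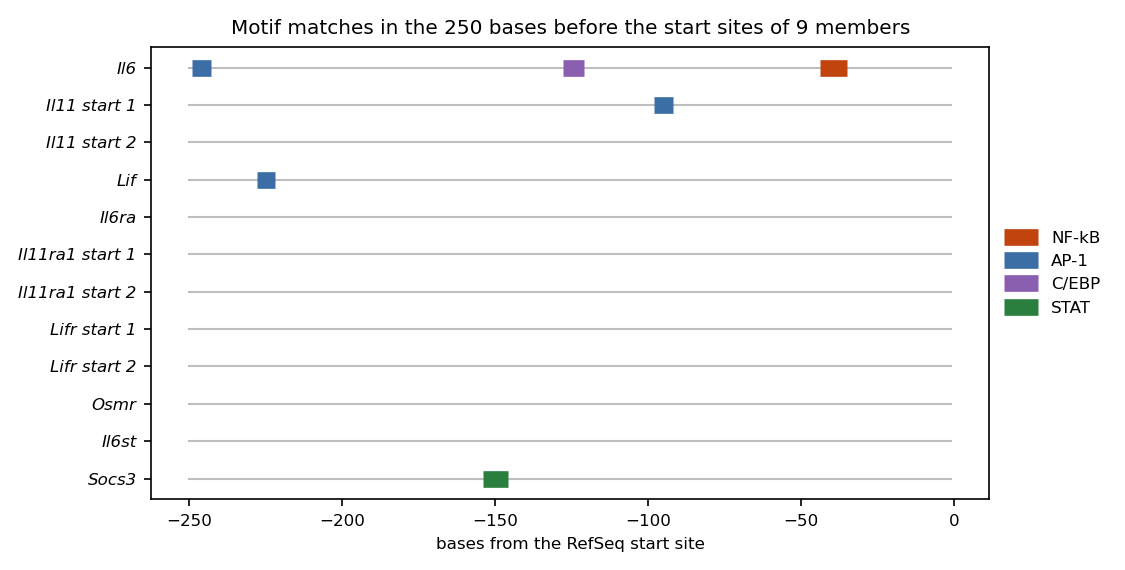
Positions of motif matches (coloured bars) along the 250 bases before each of 12 RefSeq start sites of 9 members, in bases from the start site. Il6, Lif and 1 of the 2 Il11 starts carry an AP-1 match, Il6 also carries NF-kB and C/EBP matches, Socs3 carries a STAT match, and the other starts carry none.

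The comparison asked how family genes differed between spheroids and monolayers. Each gene was tested with edgeR's quasi-likelihood test with Benjamini-Hochberg adjustment over all 13708 tested genes and a threshold of 0.05. Of the 9 tested members, 6 were higher, 2 were lower and 1 did not pass. Among all tested genes 74.2% were called, 37.1% higher and 37.1% lower, so being called is close to the background and does not set the family apart. The CPM of the formats did not overlap for 8 of the 9 tested members and for 75.8% of all tested genes. A called rise of at least 2-fold was found for 4 members, Il6, Il11, Lif and Il6ra, and for 12.7% of all tested genes; a called fall of at least 2-fold was found for 0 members and 6.67% of all genes. The members' median log2 fold change was 0.47, against -0.0016 over all tested genes.

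Il6 (gene ID 16193, chromosome 5, 30013114 to 30019975, GRCm38.p6) encodes interleukin-6, an inflammatory cytokine. It had 26.1, 24.7 and 26.0 CPM (read counts scaled to the TMM-adjusted library size) in spheroids, against 6.37, 7.08 and 6.73 CPM in monolayers. All 3 spheroid libraries lay well above all 3 monolayers. The log2 fold change was 1.93 ± 0.07 (SE, adjusted p = 2.73e-21).

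Lif (gene ID 16878, chromosome 11, 4257568 to 4272514) encodes leukaemia inhibitory factor, which acts on bone-forming and many other cells. Spheroids had 42.1, 45.3 and 44.7 CPM of it, against 7.997, 7.68 and 7.89 CPM in monolayers. The groups did not overlap, and the monolayers lay close together. Its log2 fold change was 2.49 ± 0.06 (adjusted p = 5.13e-26).

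Il11 (gene ID 16156, chromosome 7, 4772373 to 4782907) encodes interleukin-11, a stromal cytokine with roles in bone formation and fibrosis. Its level was 12.6, 13.9 and 13.4 CPM in spheroids, against 2.88, 1.85 and 2.44 CPM in monolayers. The formats were again apart, with a wider relative spread in the monolayers, where only 39.5 to 62.1 reads per library were assigned to the gene. The log2 fold change was 2.47 ± 0.12 (adjusted p = 1.2e-18).

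Osm (gene ID 18413, chromosome 11, 4236785 to 4241026) encodes oncostatin M, known mainly as a product of myeloid and T cells. It had 0, 2 and 2 reads in spheroids and 0 reads in each of the 3 monolayers, where a count of 0 allows up to 0.0463 CPM over the group, counting error only. Osm was not tested, and a difference between formats was not detectable at this depth. It lies 16.5 kb from Lif with no protein-coding gene between them. Per gene length, Osm was the lowest of the 4 cytokine genes in spheroids, and Lif stood below Il6 and above Il11.

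The levels of the genes are set side by side as FPKM, the authors' values per gene length and library size. In spheroids Il6 had 23.8 ± 0.882 FPKM, Lif 11.1 ± 0.364 FPKM and Il11 7.06 ± 0.332 FPKM, against 6.10 ± 0.333, 1.91 ± 0.0379 and 1.24 ± 0.301 FPKM in monolayers (SD, n = 3 each). The order Il6, Lif, Il11 was the same in both formats, with no overlap between neighbours. Lif stood above its receptor gene Lifr in spheroids and below it in monolayers.

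**Figure D2:**
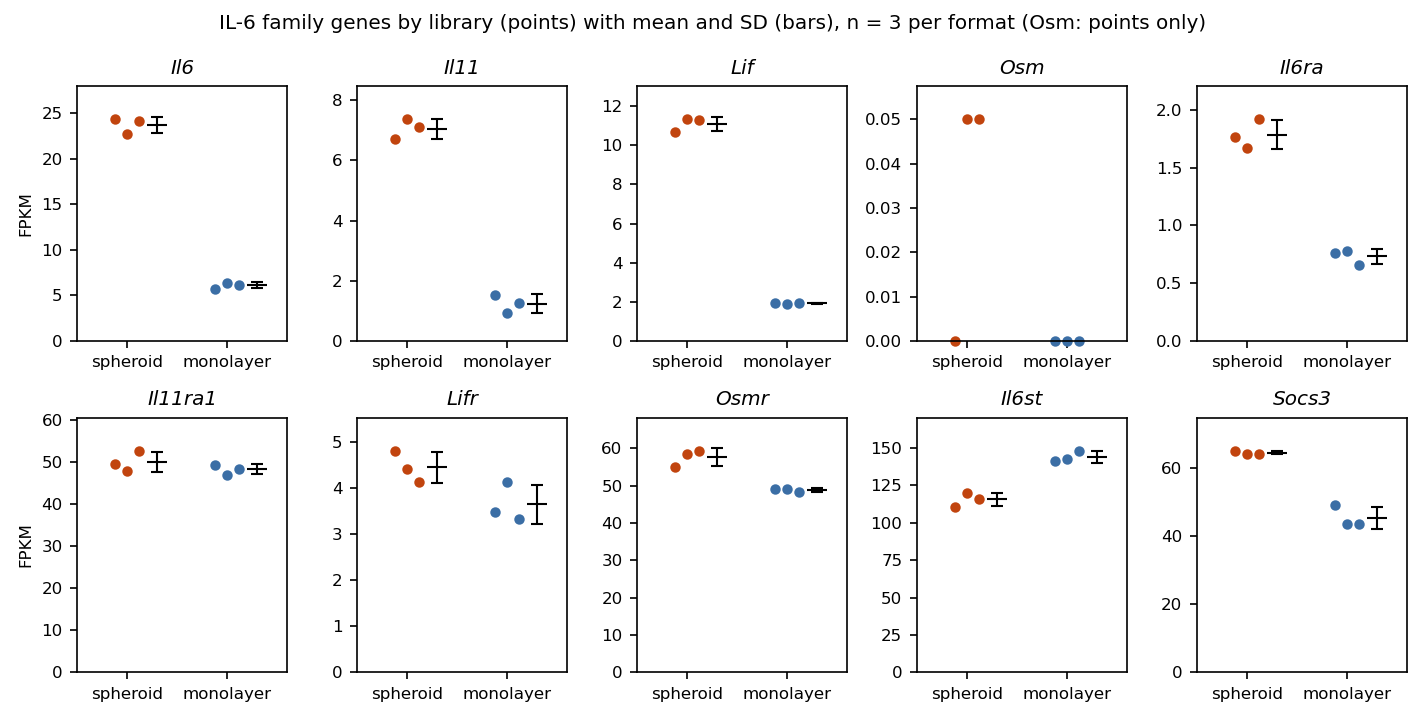
FPKM of the 10 members in each of 3 spheroid (left) and 3 monolayer (right) libraries, with mean and SD for all but Osm; each panel has its own linear axis from 0. The formats do not overlap for any tested member but Il11ra1, though the nearest Lifr libraries are at 4.15 and 4.14 FPKM. Il6 lies between 22.8 and 24.4 FPKM in spheroids and between 5.74 and 6.40 FPKM in monolayers.

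Each receptor gene moved by less than any of the 3 tested cytokine genes, with Il6ra the nearest to them. Il6ra (gene ID 16194, chromosome 3, 89869324 to 89913196) encodes the private chain for interleukin-6, which also exists as a soluble form. It had 5.80, 5.54 and 6.31 CPM in spheroids, against 2.56, 2.64 and 2.21 CPM in monolayers. No spheroid library came near the monolayers, and the log2 fold change was 1.25 ± 0.13 (adjusted p = 6.74e-10). Even so it was the lowest tested member on the FPKM scale in both formats, at 1.79 ± 0.126 FPKM in spheroids and 0.733 ± 0.0643 FPKM in monolayers (SD, n = 3 each). An annotated antisense gene, Gm42809, overlaps its exons, and since the use of strand is not given, reads of the pair cannot be told apart.

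Il11ra1 (gene ID 16157, chromosome 4, 41760443 to 41769473) encodes the private chain for interleukin-11. Its CPM was 83.4, 81.6 and 89.2 in spheroids, against 86.0, 81.5 and 83.7 in monolayers. These values overlapped, and the log2 fold change was 0.02 with a 95% interval of -0.06 to 0.10 (adjusted p = 0.685). Its reads can be shared with the near-identical Il11ra2, to which 2.96 to 7.24 reads per library were assigned in spheroids and 1.29 to 3.49 in monolayers. Ccl27a overlaps its exons on the other strand and had 57.6 to 83.6 reads in spheroids and 51.7 to 61.1 in monolayers.

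Il6st (gene ID 16195, chromosome 13, 112464070 to 112506860) encodes gp130. It had 588.8, 644.3 and 619.8 CPM in spheroids, against 773.6, 781.5 and 807.2 CPM in monolayers. Every spheroid library was below every monolayer, and the log2 fold change was -0.35 ± 0.03 (adjusted p = 5.12e-12). It remained the most abundant member per length in both formats, at 115.6 ± 4.54 FPKM in spheroids and 144.0 ± 3.72 FPKM in monolayers (SD, n = 3 each).

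Osmr (gene ID 18414, chromosome 15, 6813568 to 6874968) encodes the oncostatin M receptor chain. It was 15.2% higher, with 259.4, 279.5 and 281.1 CPM in spheroids and 239.5, 238.7 and 233.8 CPM in monolayers. The gap between the nearest libraries of the formats was smaller than the range among spheroids, but the groups did not overlap (log2 fold change 0.20 ± 0.03, adjusted p = 8.03e-07). Thus the receptor gene of oncostatin M was among the 4 highest members per length in both formats, in cells with almost no Osm reads.

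Lifr (gene ID 16880, chromosome 15, 7090610 to 7197489), which lies 215.6 kb from Osmr, encodes the leukaemia inhibitory factor receptor, and its direction depended on the deposited unit. In counts it was lower, at 26.5, 25.7 and 24.4 CPM in spheroids and 29.4, 32.1 and 29.5 CPM in monolayers (log2 fold change -0.25 ± 0.06, adjusted p = 0.000169). In FPKM it was higher, at 4.82, 4.42 and 4.15 in spheroids and 3.49, 4.14 and 3.33 in monolayers. With limma on log2(FPKM + 1), a scale that understates the change of low genes, the log2 difference was 0.23 (adjusted p = 0.0153). Neither scale had overlapping groups, though in FPKM the nearest libraries were 4.15 and 4.14.

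The opposite signs come from the gene length built into the FPKM values. Dividing reads by FPKM and library total gave an implied Lifr transcript length of 5589, 5840 and 5957 bases in spheroids, against 8298, 7658 and 8772 bases in monolayers. It was thus 29.7% shorter on average in spheroids, with no overlap. For the other 8 tested members the difference in implied length was between -1.10% and 0.33%. Among 11702 tested genes with a mean of at least 1 FPKM, the 5th and 95th percentiles of this difference were -1.71% and 3.51%, and 8 genes, Lifr included, were shortened at least as much. GENCODE M21 lists 6 protein-coding Lifr transcripts, of 577 to 9655 bases. The implied length does not say which transcripts were present.

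**Figure D3:**
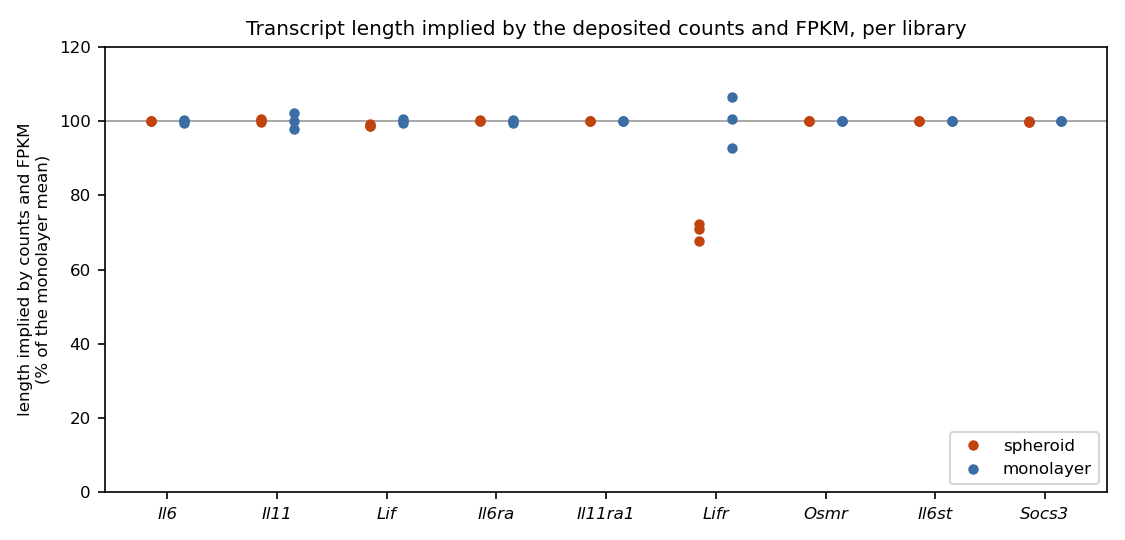
Length implied by the deposited counts and FPKM, as a percentage of the gene's monolayer mean, for 9 members in 3 spheroid (left of each pair) and 3 monolayer libraries. Lifr lies at 67.8% to 72.3% in spheroids and 92.9% to 106% in monolayers, while the spheroid values of the other 8 genes lie between 98.7% and 101%.

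Socs3 (gene ID 12702, chromosome 11, 117966079 to 117970336), the feedback inhibitor, was 38.7% higher in spheroids. It had 172.2, 172.0 and 170.6 CPM in spheroids, against 134.1, 118.6 and 118.3 CPM in monolayers. Monolayer replicate 1 stood above the other monolayers but below every spheroid library. The log2 fold change was 0.47 ± 0.04 (adjusted p = 2.84e-11). Per length Socs3 ranked second among members in spheroids, at 64.6 ± 0.489 FPKM, and the fourth in monolayers, at 45.5 ± 3.18 FPKM (SD, n = 3 each). In monolayers the ranges of Osmr, Il11ra1 and Socs3 overlapped from neighbour to neighbour, so that their order is not resolved there; all other neighbours in either format were apart.

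**Figure D4:**
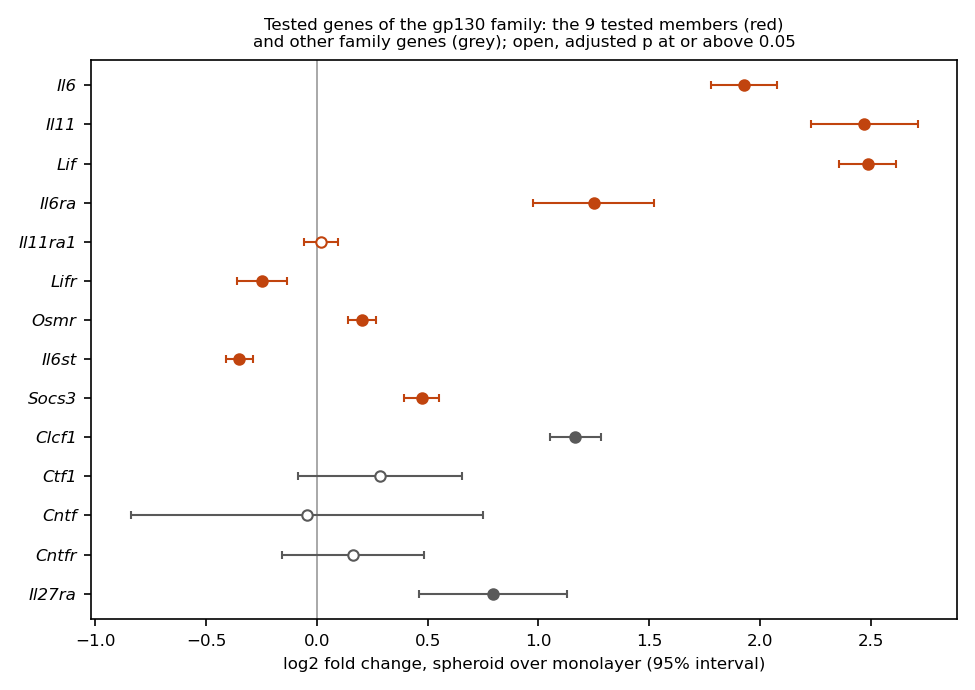
Log2 fold change of spheroids over monolayers with its 95% interval for the 9 tested members (red) and 5 other tested family genes (grey); open symbols did not pass the threshold. Il6, Il11, Lif and Il6ra in the red group and Clcf1 in the grey group lie above 1, and Il6st and Lifr lie below 0.

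Other cytokines of the family were read from a fixed list of 8, of which 7 were tabulated and 4 were tested: 2 were higher, 0 lower and 2 did not pass. Clcf1, which encodes cardiotrophin-like cytokine, had 63.2, 61.7 and 56.1 CPM in spheroids and 29.2, 26.6 and 24.7 CPM in monolayers (log2 fold change 1.17 ± 0.06, adjusted p = 4.93e-16). Ctf1, the cardiotrophin-1 gene, and Cntf, the ciliary neurotrophic factor gene, had log2 fold changes of 0.29 and -0.04, with 95% intervals of -0.08 to 0.66 and -0.84 to 0.75. Ctf2, Il27 and Ebi3 had at most 9 reads over the 3 libraries of either format and were not tested, and Il31 was not analysed here.

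Among 4 other receptor genes 2 were tested, of which 1 was higher. Il27ra, which encodes a receptor chain for interleukin-27, rose by 0.79 ± 0.16 on the log2 scale (adjusted p = 6.62e-05). Cntfr, the receptor chain for ciliary neurotrophic factor, stood at 0.16 on that scale with a 95% interval of -0.16 to 0.48. Il31ra had 5 reads over the spheroids and 15 over the monolayers, and Il11ra2 had 17 over the spheroids and 6 over the monolayers after rounding, both too few to be tested.

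Genes of JAK kinases and STAT factors mostly shifted by small amounts. Of 10 tested, 8 were higher and 2 lower (median log2 fold change 0.36), where 74.2% of all tested genes were called, 37.1% in each direction. Jak3, a kinase of blood cells, rose by 0.67 ± 0.08, Stat5a by 0.58 ± 0.05 and Jak2 by 0.38 ± 0.04 (adjusted p = 4.99e-09, 4.37e-11 and 1.29e-10). Stat3, singled out after its values were seen because it is the main transducer of gp130, had 373.7, 385.0 and 387.1 CPM in spheroids and 303.6, 290.5 and 302.8 CPM in monolayers (log2 fold change 0.35 ± 0.03, adjusted p = 1.33e-12). Stat2, a factor of interferon signalling, stood at -1.18 ± 0.20 on the log2 scale (adjusted p = 0.00555). The count of lower genes in this list was 1 when the replicate number was a block and without any 1 library but monolayer replicate 1.

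Brakes on the pathway and the proteases that shed its receptors had 10 of 17 members higher, 4 lower and 3 that did not pass (median log2 fold change 0.15). The share called is near the 74.2% of all tested genes, and the count of higher members was 7 with DESeq2 and without spheroid replicate 3. Ptpn1, a phosphatase that acts on JAK kinases, rose by 1.23 ± 0.03, Cish, a SOCS-type inhibitor of cytokine signals, by 1.10 ± 0.10, and Socs1, a JAK inhibitor, by 0.57 ± 0.07. Socs5 stood at -0.51 ± 0.03 and Ptpn11, the phosphatase SHP2 that docks on gp130, at -0.32 ± 0.03, both called lower. Socs4 was called lower at -0.25 ± 0.10 (adjusted p = 0.0266), but not by DESeq2 (0.126), with library size only (0.0555), without spheroid replicate 2 (0.13) or without monolayer replicate 1 (0.0923).

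Of 27 known STAT3 target genes 25 were tested, of which 18 were higher, 5 lower and 2 did not pass (median log2 fold change 1.28). Among all tested genes 37.1% were higher and 37.1% lower, with a median of -0.0016. The largest rises were of acute-phase type genes, Saa3 at 8.12, Lcn2 at 6.07 and Lrg1, which encodes a leucine-rich glycoprotein, at 4.43 ± 0.21. Lrg1 had only 21 reads over the 3 monolayers, Saa3 24 and Lcn2 51, so their SEs understate the uncertainty. The largest falls were of Birc5, the survivin gene, at -1.62 ± 0.06, Ccnd1, the cyclin D1 gene, at -1.32 ± 0.03, and Cebpd, a transcription factor gene, at -0.94 ± 0.04. Many of these genes also respond to NF-kB or to proliferation, and the list does not tell the inputs apart. Fos and Junb, subunits of AP-1, rose by 3.73 ± 0.18 and 1.61 ± 0.04, a pair named after its values were seen. Other AP-1 subunits are not reported here. Any link to the AP-1 letters before Il6, Lif and Il11 was not tested.

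Markers of other cell types moved in the same libraries, in which 37.1% of all tested genes were higher and 37.1% lower. In bulk RNA, fewer cells of a type and less RNA per cell cannot be told apart. Summed over the list, 10 skeletal muscle markers, all of them higher, came to 1394 to 1497 CPM in spheroids and 70.3 to 74.1 CPM in monolayers, and myogenic cells also express Il6 and Lif. The 14 macrophage markers, 12 of 13 tested being higher, came to 163.4 to 168.7 CPM in spheroids and 35.7 to 40.1 CPM in monolayers. Lyz2 held 97.4 to 104.1 CPM of that sum in spheroids and 17.2 to 19.8 CPM in monolayers. Csf1r did not pass, and Cx3cr1, too low to be tested, had 7 reads over the spheroids and 19 over the monolayers. The 10 endothelial markers, of which 9 were higher, came to 540.6 to 572.9 CPM in spheroids and 253.1 to 254.8 CPM in monolayers, with a median log2 fold change of 2.66. Eng, the endothelial marker that did not pass, held 179.0 to 193.4 CPM of the sum in spheroids and 187.5 to 191.4 CPM in monolayers, and the other 9 came to 361.6 to 379.5 CPM in spheroids and 63.4 to 65.6 CPM in monolayers. All 5 of 5 tested Schwann cell markers were higher, at 81.7 to 85.4 CPM in spheroids and 11.5 to 14.3 CPM in monolayers. The part of these cells in the cytokine values was not tested. The 10 neutrophil and mast cell markers, of which 2 of 3 tested were higher, came to 5.63 to 6.03 CPM in spheroids and 2.44 to 3.02 CPM in monolayers. The 8 tabulated lymphocyte markers, of which 1 of 2 tested was higher, came to 3.75 to 5.94 CPM in spheroids and 2.54 to 4.58 CPM in monolayers. Among the neutrophil and mast cell markers, S100a8 had 61 reads over the spheroids and 3 over the monolayers. Kit had 239 and 76 reads, and both genes were called higher. Cxcr2, with 48 and 60 reads, did not pass. Ly6g had 0 reads over the spheroids and 2 over the monolayers, Mcpt4 had 0 and 1, and Cpa3 had 1 and 0. These 3 genes were too low to be tested. The 6 epithelial markers summed to at most 0.363 CPM in spheroids and 0.418 CPM in monolayers, with Krt8 and Krt14 at 0 throughout. All 12 periosteal stromal markers were detected, at 45755 to 48139 CPM in spheroids and 63729 to 65118 CPM in monolayers, and 8 were higher and 4 lower. The lower sum in spheroids rested on the collagen genes Col1a1 and Col1a2, at 22339 to 23463 CPM together in spheroids and 48282 to 49064 CPM in monolayers. The other 10 came to 23416 to 24716 CPM in spheroids and 15420 to 16055 CPM in monolayers, the opposite direction. Lyz2, Eng, Col1a1 and Col1a2 were set apart after their values were seen.

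**Figure D5:**
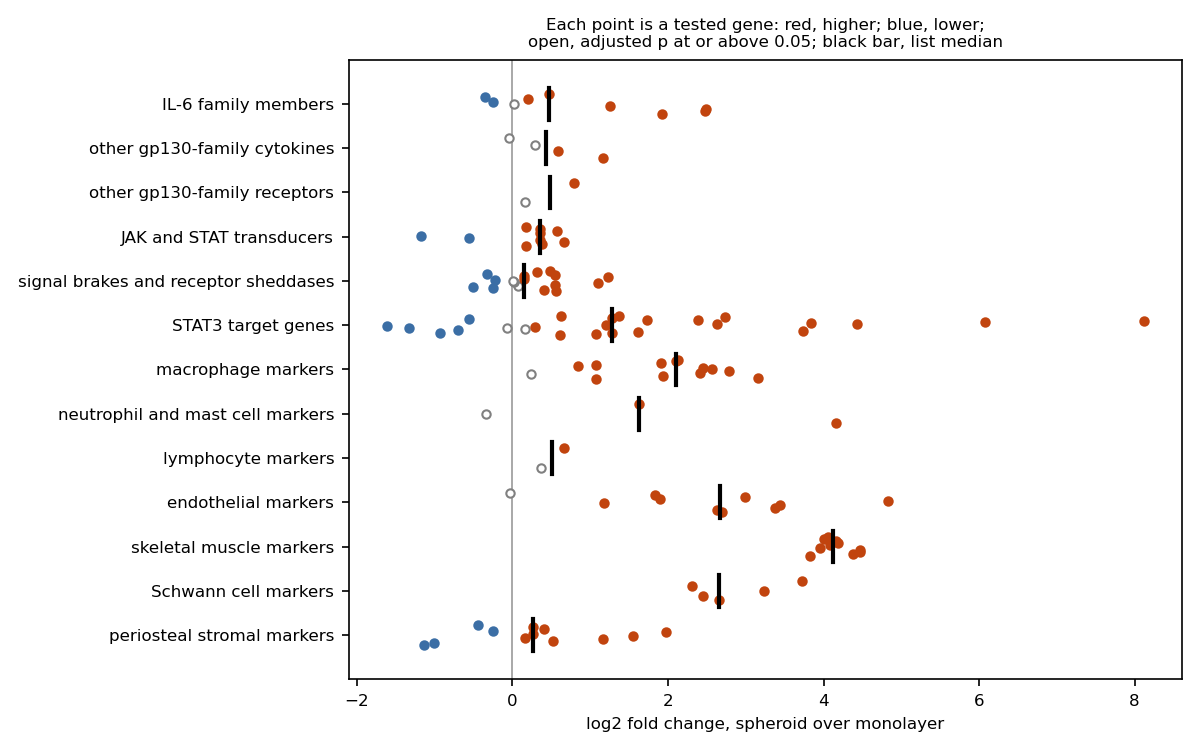
Log2 fold change of spheroids over monolayers for each tested gene of 13 lists, with the list median as a black bar. The family, transducer and brake lists centre between 0.15 and 0.48, STAT3 target genes at 1.28, and skeletal muscle markers, the rightmost list by median, at 4.12.

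The genes whose profile over the 6 libraries lay nearest to that of Il6 were Rin2, Trp53i11, Baiap2l1, Dusp6 and Zfp36l1. Likeness was the root mean square difference in log2 CPM deviations, which was 0.038 to 0.048 for these genes among 12423 compared. Their log2 fold changes ranged from 1.88 to 2.04. Since the 6 libraries hold only 2 formats, this likeness mostly reflects a fold change of the same size.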

How the data were processed

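Total RNA was isolated with a column kit at 48 h, and BGI sequenced it on DNBSEQ instruments, per the labels' protocols. HISAT was the aligner and GRCm38.p6 the build, per the submitters' processing notes. Neither the counting tool and annotation nor the handling of strand is given in the sources read. The authors deposited expected counts, of which 28.9% to 30.6% per library had decimals, and also FPKM values, per the file headers. Counts were rounded, filtered with filterByExpr (minimum count 10) and tested in edgeR 4.0.16 (R 4.3.3) with TMM factors of 0.985 to 1.02 and robust quasi-likelihood fits, p-values being adjusted by Benjamini-Hochberg across every tested gene. SEs come from the F statistic and can fall below counting error where a change is large, as they slightly did for Il6, Lif and Il11. No replicate pair agreed within counting noise (mean chi-square ratio 1.90 to 2.91, where noise gives 1), so all 6 libraries were kept.

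The members and gene lists were chosen with earlier results of these data known, so list counts are descriptions. Named genes were all members and other family genes, and up to 3 called rises and 3 called falls per other list; a few of these are not reported here, and further names are said to be chosen later. RefSeq GRCm38.p6, which held 17948 of the 18002 gene IDs, gave coordinates and promoters; strands and transcripts are from GENCODE M21. The test was also run on simulated data in which few genes changed, unlike the 74.2% called here. That run therefore does not check the calls in these data. Alternatives used DESeq2 1.42.0, limma 3.58.1, pseudocounts of 1 and 0.1, other scalings and filters, a replicate block and single libraries left out.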

Additional observations from a re-analysis of the deposited data

How the results depend on the processing

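For the 9 tested members, 150 of 153 values under the alternatives kept their side of the threshold and, for called genes, their direction. The 3 that did not were those of Lifr in limma on FPKM, with log2 differences of 0.23 with a pseudocount of 1, 0.29 with a pseudocount of 0.1 and 0.23 with a pseudocount of 1 and a mean of at least 1 FPKM. In these 3 settings the count of lower members was 1, and the lengths built into FPKM set the sign. Il6 ranged from 1.80 to 1.97, Il11 from 1.85 to 2.62, Lif from 2.05 to 2.52, Il6ra from 0.68 to 1.30, Il6st from -0.38 to -0.31 and Socs3 from 0.44 to 0.52. Il11ra1, not called in any setting, ranged from -0.02 to 0.05 and so changed sign. Without 1 library at a time, 6 members were higher and 2 lower in each case. Of lower JAK and STAT genes, 1 was left with a replicate block, and 1 to 2 without 1 library. In the other genes that the naming rule chose, 10 of 439 values lost their call, 3 gained one and 0 values of called genes reversed. Genes that were not called could change sign, as Cntf did between -0.35 and 0.56 and Cntfr between -0.05 and 0.32. The 10 and 4 calls of brakes and sheddases ranged from 7 to 10 and from 3 to 4, and the 18 and 5 of STAT3 target genes from 18 to 19 and from 5 to 6. No scaling moved the median of all genes by over 0.1. The labels do not say whether the same replicate numbers pair the samples. Deviations of same-numbered libraries correlated at -0.02, 0.07 and 0.05. Spheroid replicate 2 correlated best with its own number, and spheroid replicates 1 and 3 did not. With 3 libraries per format such values depend on each other, so they do not settle whether samples were paired. As a block, the replicate numbers gave 5120 higher and 5118 lower genes, against 5082 and 5091. Depth limits Osm and the other genes that were too low to be tested.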
